A study of Rattus norvegicus with 6 samples.

Results

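The tumour suppressor p53 is a transcription factor that is stabilised after DNA damage and other stresses. Its targets stop the cell cycle, start apoptosis, aid DNA repair, adjust metabolism and, through Mdm2, bring p53 itself down again. In the kidney, p53 target genes are commonly read after exposure to nephrotoxic or DNA-damaging agents. The p53 target genes described here are 32 named genes, sorted by role into cell cycle arrest, feedback on p53, apoptosis, DNA repair with nucleotide supply, and metabolism. Of these, 28 had a probe on the array whose accession maps to the rat symbol, and 27 were tested among 31087 genes in all. Only 12015 of the 31087 had a gene symbol, and the others were counted under the array's own identifier. Shares of all genes below include both kinds. Tnfrsf10b, Eda2r, Ddb2 and Sesn1 had no probe under their symbol. Pmaip1, which encodes the BH3-only protein Noxa, had 1 probe, well above background on 0 of 3 control and 0 of 3 treated arrays. All 27 tested members were well above background on all 6 arrays, so the filter on dim probes chose none of them by group.

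The animals were male rats of the Sprague-Dawley stock (Crl:CD(SD)), 5 weeks old when bought, and the tissue was renal cortex. The 3 control animals received water and the 3 treated animals received o-anisidine hydrochloride, an aromatic amine, at 700 mg/kg/day, both for 4 weeks. Each animal was measured on 1 single-colour Agilent array, and values are log2 signals relative to the array's 75th percentile. A sample of whole cortex mixes cell types, and fewer cells of a type and less RNA per cell cannot be told apart. The arrays lay on 2 slides: slide 1 carried every control together with o-anisidine 3, while slide 2 carried o-anisidine 1 and 2 without a control of this series. How the compound was given (route) is not stated in these sources.

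Of the 61657 probes, 43075 to 43630 stood well above background on control arrays and 41670 to 42766 on treated arrays, so fewer were detected on every treated array. No spot was saturated, and the number of arrays limits the precision. All 8 proximal tubule markers measured were well above background on all 6 arrays, as were the 5 podocyte, 6 collecting duct and 5 endothelial markers. The median of all genes differed between groups by a log2 change of 0.00. Red blood cell markers were higher after treatment, with a median log2 change of 1.60 over the 9 tested. For 9 of the 9 the groups did not overlap, against 9.55% of all genes higher, and 3 passed the threshold, against 0.0354%. Only 8 of the 9 were well above background on all 6 arrays. The other was kept through all arrays of 1 group only, so its lack of overlap does not count as support. The median shift of the 9 from the control mean was between 1.49 and 1.83 on treated arrays and between -0.14 and 0.27 on controls. Of the 6 collecting duct markers, 5 lay below 0 and Slc4a1 above it (0.26), with a median log2 change of -0.31. For 3 of the 5 the unadjusted p was under 0.05, against 5.14% of all genes lower, and 0 were called. The median shift of the 6 was -0.43, -0.21 and -0.25 on treated arrays and between -0.11 and 0.06 on controls. Other cell types also had medians below 0: fibroblast -0.29 (4 of 5 below 0), lymphocyte -0.20 (6 of 7) and podocyte -0.08 (5 of 5), with 0 called in each. Medians were 0.03 for proximal tubule and 0.02 for endothelial markers. The 6 macrophage and neutrophil markers tested had a median of -0.06 with 0 called, and 4 of them lay below 0. The 2 above 0 were the neutrophil genes S100a8 and S100a9, with log2 changes of 1.36 and 1.37 without overlap, against 9.55% of all genes higher. The part of these shifts in the results below was not tested.

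To show the regulatory sequence in question, the members' RefSeq promoters (GRCr8, 250 bases before to 50 after the annotated start) were searched for the p53 decamer, the 10-base unit of which a p53 binding element holds a pair. The decamer reads the same on both strands. Of 25 members with a promoter sequence, 6 held a match (24.0%), against 7.98% of all 33469 promoters of the same length. They are Aen, Ccng1, Cdkn1a, Ei24, Gadd45a and Sesn1. No promoter entry was matched for Ddb2, Bax, Bbc3, Zmat3, Tp53inp1, Rrm2b and Tnfrsf10b. A match describes the letters only and is not a binding site shown here. The windows below were chosen because they belong to 3 arrest genes and to Aen, whose values are given in detail, and capitals mark the decamer. They lie at chr20:7150686-7150785 on the plus strand (Cdkn1a), chr4:97486793-97486892 on the minus strand (Gadd45a), chr10:25685027-25685126 on the minus strand (Ccng1) and chr1:142224458-142224557 on the plus strand (Aen).
Cdkn1a: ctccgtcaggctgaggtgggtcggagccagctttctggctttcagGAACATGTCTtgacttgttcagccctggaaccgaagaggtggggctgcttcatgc
Gadd45a: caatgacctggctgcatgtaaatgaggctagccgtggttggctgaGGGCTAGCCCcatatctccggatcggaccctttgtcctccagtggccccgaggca
Ccng1: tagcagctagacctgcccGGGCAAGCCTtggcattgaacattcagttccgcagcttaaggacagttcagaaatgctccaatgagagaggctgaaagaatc
Aen: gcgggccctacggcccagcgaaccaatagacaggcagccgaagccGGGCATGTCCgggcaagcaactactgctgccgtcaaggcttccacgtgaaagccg

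After 4 weeks of o-anisidine no p53 target gene passed the threshold over all genes. The 27 members had log2 changes between -0.32 (Aen) and 0.60 (Plk3), with a median of 0.11, and 20 of them lay above 0, against 50.9% of all genes with a median of 0.00. The count of members called was 0 higher and 0 lower (limma with Benjamini-Hochberg adjustment, two-sided), against 0.0354% and 0.0257% of all genes. At an unadjusted p under 0.05, 2 members were higher and 0 lower, against 6.36% and 5.14% of all genes. The smallest adjusted p of any member was 0.361, for Gadd45a. On the brightest probe of each gene, the groups did not overlap for 3 members, Gadd45a, Mdm2 and Tp53inp1, all higher after treatment. The share over all genes was 18.4% in either direction, 9.55% higher and 8.88% lower.

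The precision allows a bound on most of these differences. For 24 of 27 members the 95% interval of the log2 change lay within 2-fold in either direction, as it did for 90.9% of all genes. The other 3 were Btg2, Plk2 and Plk3, all of the arrest subset. These intervals belong to the probe that stands for each gene, its brightest, and some dimmer probes of Cdkn1a, Ccng1 and Fas do not share that bound.

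**Figure D1:**
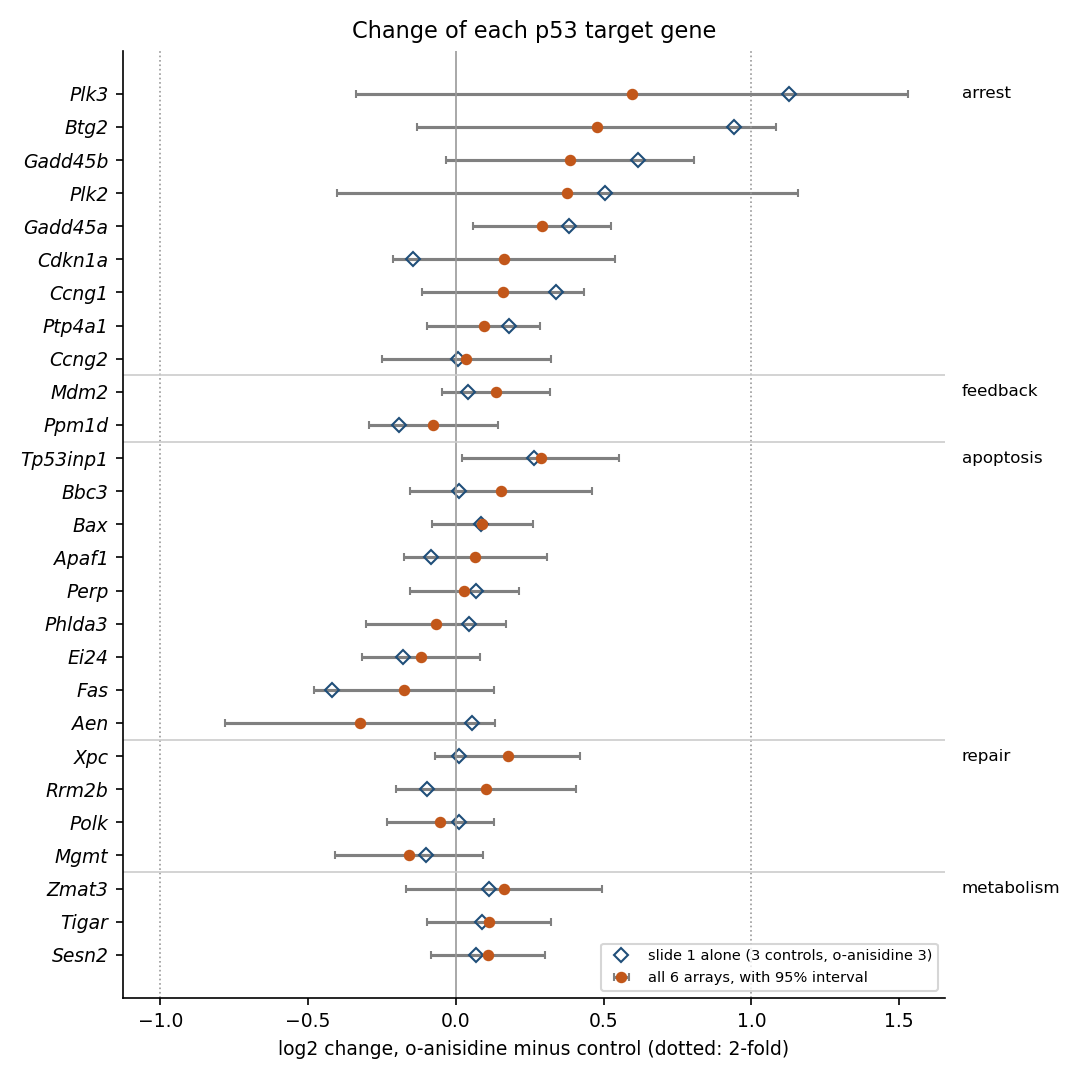
Log2 change of each tested p53 target gene, o-anisidine minus control, by role; filled points with 95% intervals use all 6 arrays and open diamonds use slide 1 alone (3 controls and o-anisidine 3). All 9 arrest genes lie above 0 on 6 arrays, Cdkn1a lies at 0.16 on 6 arrays and at -0.15 on slide 1, and only Btg2, Plk2 and Plk3 have intervals that reach past 2-fold higher.

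The role subsets differed in their medians. The 9 arrest genes, a subset that also takes in growth control, had a median log2 change of 0.29. All 9 lay above 0, from 0.04 (Ccng2) to 0.60 (Plk3). That median was 0.19 without control 3 and 0.18 with normexp background correction. The 9 measured apoptosis genes had a median of 0.03, with 5 above 0 and 4 below. The 4 measured repair genes also had a median of 0.03, with 2 above 0 and 2 below. The 3 measured genes of the metabolism subset, all above 0, had 0.11. Per array, taking each gene relative to its control mean, the arrest genes had a median shift of 0.12 on o-anisidine 1, 0.15 on o-anisidine 2 and 0.38 on o-anisidine 3, above the control values of 0.01, -0.10 and 0.05. The apoptosis genes were at 0.06, -0.01 and 0.05 on treated arrays and between -0.08 and 0.05 on controls, so these groups overlapped. The repair genes were at 0.00, 0.12 and -0.04 against -0.06 to 0.07 on controls, again overlapping. No test was made over the subsets, since their members were named with results of these data known.

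Gadd45a, a stress-induced inhibitor of Cdk1 and cell cycle progression, was at 3.12, 3.20 and 3.23 on controls and 3.30, 3.55 and 3.57 on o-anisidine 1, 2 and 3. Every treated value lay above every control value, by a small margin for o-anisidine 1. The log2 change was 0.29 (SE 0.10, 95% interval 0.06 to 0.53, adjusted p = 0.361), or 1.22-fold. Its relative Gadd45b was at -0.25, -0.40 and 0.14 on controls and 0.08, 0.12 and 0.45 after treatment. Control 3 lay above o-anisidine 1 and 2, and the log2 change of 0.39 (SE 0.17, adjusted p = 0.458) did not pass the threshold.

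Btg2, an antiproliferative gene, and Plk3, a polo-like kinase of the stress response, showed the widest spread between treated animals. Btg2 was at 0.51, 0.26 and 0.48 on controls and 0.95, 0.37 and 1.36 on o-anisidine 1, 2 and 3. Plk3, singled out after its values were seen, was at -1.52, -1.04 and -0.80 on controls and -0.23, -1.35 and 0.01 after treatment. In both genes o-anisidine 1 and 3 lay above all controls and o-anisidine 2 lay among them. The log2 changes were 0.48 (SE 0.25, adjusted p = 0.520) for Btg2 and 0.60 (SE 0.38, adjusted p = 0.597) for Plk3. Without o-anisidine 2 that of Btg2 was 0.74 and that of Plk3 1.01, without o-anisidine 3 they were 0.24 and 0.33, and neither gene passed in either case.

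Btg2, Plk3 and Gadd45b are also known as genes that respond quickly to many stimuli, so a set of immediate early genes was read on the same arrays, chosen after these values were seen. Of 12 named, 9 were tested, with a median log2 change of 0.12 and 0 called. Per array, these genes had a median shift of 0.08, -0.50 and 0.40 in treated animals 1, 2 and 3, and 0.09, -0.30 and 0.26 on controls 1, 2 and 3. The smallest p values were those of Ier3 (0.39, SE 0.10, adjusted p = 0.266) and Junb (0.23, SE 0.10, adjusted p = 0.447). All 4 kidney injury markers read, also chosen after values were seen, lay above 0, with a median log2 change of 1.57 and 0 called. Their median shift was 2.51, 0.34 and 1.37 in treated animals 1, 2 and 3. Clu (clusterin) had 1.31 (SE 0.26, adjusted p = 0.161) and Lcn2 (lipocalin 2) 1.06 (SE 0.32, adjusted p = 0.328). The part of either in the arrest genes' values was not tested.

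**Figure D2:**
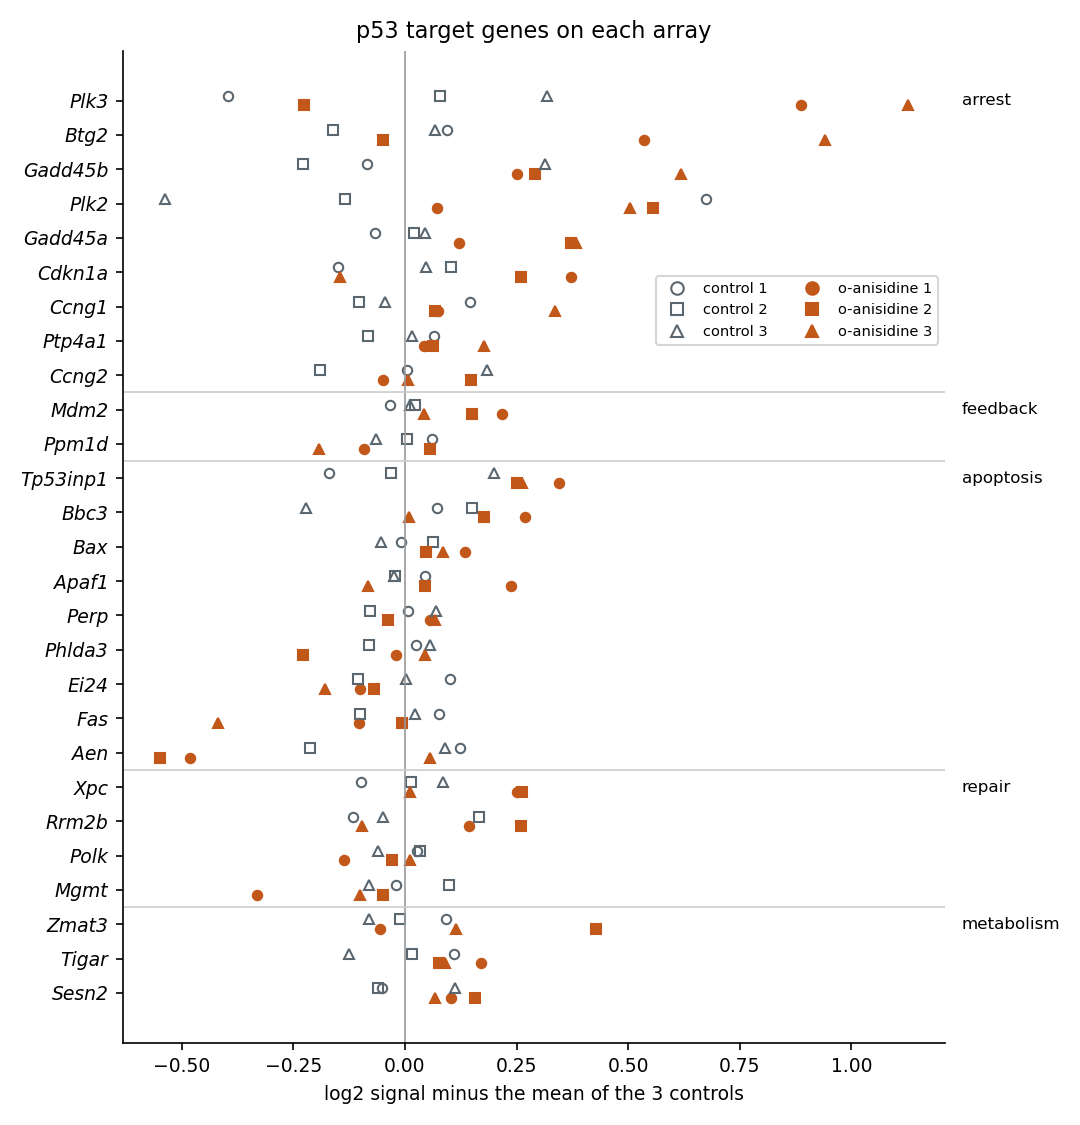
Log2 signal of each tested p53 target gene on each array, minus the mean of the 3 controls, grouped by role; open grey symbols are controls, filled orange symbols o-anisidine, and the shape gives the replicate number. Treated values of Plk3 and Btg2 range widely, with o-anisidine 2 among the controls, while most apoptosis and repair genes lie within 0.5 of the control mean on every array.

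Cdkn1a encodes p21, the Cdk inhibitor that carries out most of the p53 arrest, and here its probes disagreed. The brightest probe, A_64_P123895, was at 4.67, 4.93 and 4.87 on controls and 5.20, 5.08 and 4.68 on o-anisidine 1, 2 and 3. The treated range overlapped that of the controls, with o-anisidine 3 near the lowest control, and the log2 change was 0.16 (SE 0.15, adjusted p = 0.722), or 1.12-fold. The probe A_44_P914438 was at 0.14, -0.05 and 1.04 on controls and 1.52, 1.31 and 2.27 after treatment, with no overlap. On it the log2 change was 1.33 (SE 0.36, 95% interval 0.44 to 2.21), or 2.51-fold. The dimmest probe, A_44_P515275, was at -6.17, -5.48 and -5.60 on controls, well above background on 2 of the 3, and at -4.78, -5.33 and -3.83 after treatment. Its log2 change was 1.10 (SE 0.40), but it passed the filter on dim probes only through the treated group, where it is higher, so it does not count as a second measurement of the difference.

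The probe A_44_P914438 did not pass the threshold over 42036 probes (limma with Benjamini-Hochberg adjustment, adjusted p = 0.275; unadjusted p = 0.0105). Within slide 1 the disagreement was wider: the log2 change was -0.15 on the brightest probe and 1.89 on A_44_P914438. All 3 probes carry the same transcript accession, and their positions in the transcript are not used here. A gap over 0.9 was rare on the array. Among 8767 additional kept probes of genes with a symbol, 61 (0.696%) differed by that much in log2 change from their gene's brightest probe. The dimmer Cdkn1a probes, with gaps of 1.16 (A_44_P914438) and 0.94 (A_44_P515275), are counted in the 61. With the mean of all kept probes, the log2 change of Cdkn1a was 0.86 and did not pass the threshold. That mean includes the dimmest probe, kept only through the treated group, so it is no separate support for a difference. On the brightest probe alone the log2 change of Cdkn1a ranged from 0.06 without o-anisidine 1 to 0.32 without o-anisidine 3.

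**Figure D3:**
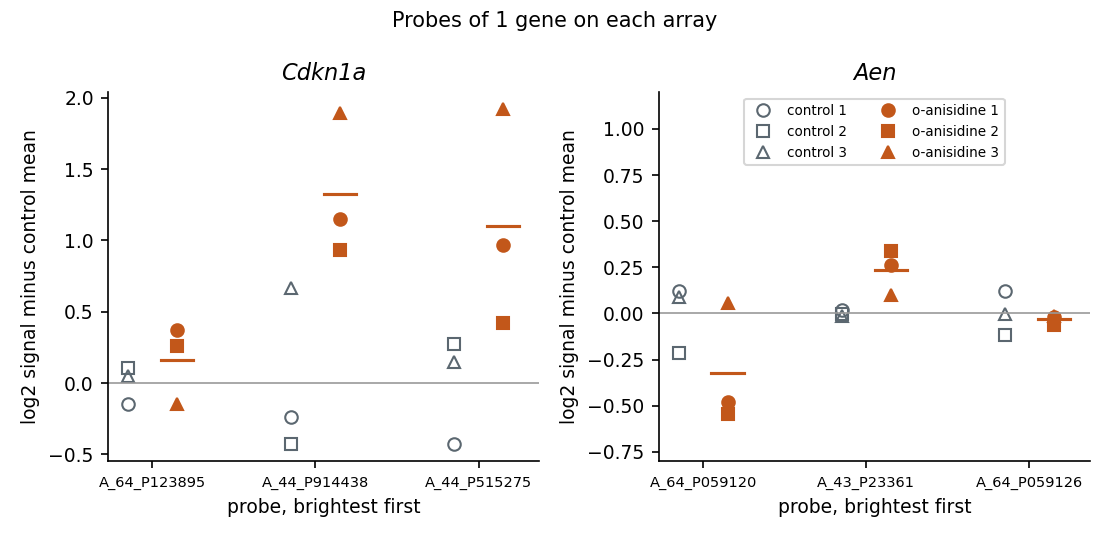
Log2 signal of each kept probe of Cdkn1a and Aen on each array, minus that probe's control mean, brightest probe on the left; bars mark the treated mean. The log2 change of Cdkn1a is 0.16, 1.33 and 1.10 on its 3 probes, and that of Aen -0.32, 0.24 and -0.03.

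The remaining arrest genes had log2 changes between 0.04 and 0.38. Ccng1, an atypical cyclin that is among the most widely used p53 reporters in rodents, was at 2.37, 2.12 and 2.18 on controls and 2.30, 2.29 and 2.56 after treatment, with control 1 above o-anisidine 1 and 2. Its log2 change was 0.16 (SE 0.11, adjusted p = 0.626), and 0.07 without o-anisidine 3. A second kept Ccng1 probe varied by more between animals than between groups, with an SD of 1.69 in controls and 1.24 after treatment around a log2 change of 0.08. Plk2, another polo-like kinase, had 0.38 (SE 0.32) with controls spread from -3.94 to -2.73, and ranged from 0.11 without control 3 to 0.71 without control 1. The phosphatase gene Ptp4a1 had 0.09 on its brightest probe and 0.27 and 0.20 on 2 dimmer ones, and Ccng2, a cyclin relative that blocks proliferation, had 0.04 and -0.13 on its 2 probes.

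The feedback genes had log2 changes on both sides of 0. Mdm2, the ubiquitin ligase that degrades p53, was at 1.10, 1.16 and 1.15 on controls and 1.35, 1.28 and 1.18 on o-anisidine 1, 2 and 3. The groups did not overlap, yet o-anisidine 3 stood only just above the highest control, and the log2 change was 0.14 (SE 0.08, 95% interval -0.05 to 0.32, adjusted p = 0.539). A second Mdm2 probe gave -0.04 (SE 0.07). Ppm1d, the phosphatase Wip1 that removes activating phosphates from p53, was at 0.09, 0.03 and -0.03 on controls and -0.06, 0.09 and -0.16 after treatment, with overlapping groups and a log2 difference of -0.08 (SE 0.09, adjusted p = 0.778).

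Among apoptosis genes, Tp53inp1, which encodes a stress protein that promotes p53 phosphorylation and cell death, was the only member whose groups did not overlap on the brightest probe. It was at -1.34, -1.20 and -0.97 on controls and -0.82, -0.92 and -0.91 after treatment, a log2 difference of 0.29 (SE 0.11, adjusted p = 0.412). Bax, the pore-forming Bcl2 family member, was at 0.66, 0.73 and 0.61 on controls and 0.80, 0.71 and 0.75 after treatment. Those groups overlapped, and the log2 change of 0.09 had a 95% interval of -0.08 to 0.26, which lies within 2-fold. Bbc3, the BH3-only protein PUMA, had 0.15 (SE 0.13) and Apaf1, the scaffold of the apoptosome, 0.07 (SE 0.10). Perp, a desmosomal membrane protein, had 0.03 and Phlda3, a repressor of Akt, -0.07. A dimmer Perp probe was at 2.28, 2.37 and 2.46 on controls and 2.55, 2.51 and 2.49 after treatment. Its groups did not overlap, with a log2 change of 0.15 (SE 0.08). The death receptor gene Fas had -0.18 (SE 0.13), its lowest value, -2.80, being on o-anisidine 3, and 2 much dimmer Fas probes, each detected on all arrays of only 1 group, gave 0.27 (SE 0.35) and -0.27 (SE 0.29).

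Aen, a nuclease of apoptotic cells, had the lowest log2 change of the members on its brightest probe, which was at 3.16, 2.82 and 3.13 on controls and 2.55, 2.49 and 3.09 on o-anisidine 1, 2 and 3. The animals on the second slide lay below all controls and o-anisidine 3 among them, giving -0.32 (SE 0.19, adjusted p = 0.557), with -0.21 without o-anisidine 2 and -0.51 without o-anisidine 3. A dimmer Aen probe, A_43_P23361, lay on the other side of 0, at -0.33, -0.35 and -0.36 on controls and -0.08, -0.00 and -0.24 after treatment, with a log2 change of 0.24 (SE 0.08) and no overlap, and the dimmest probe gave -0.03. The direction of Aen therefore differed between probes of the same accession. Ei24, an endoplasmic reticulum protein of growth suppression, was at -0.32, -0.52 and -0.42 on controls and -0.52, -0.49 and -0.60 after treatment, with overlap and a log2 difference of -0.12 (SE 0.08, adjusted p = 0.626).

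The repair genes lay on both sides of 0. Xpc, which recognises helix-distorting lesions for nucleotide excision repair, was at 0.28, 0.40 and 0.47 on controls and 0.63, 0.64 and 0.39 on o-anisidine 1, 2 and 3, a log2 difference of 0.17 (SE 0.10, adjusted p = 0.555). The animals on the second slide lay above all controls and o-anisidine 3 lay among them. Mgmt, which removes alkyl groups from guanine, was at 2.11, 2.23 and 2.05 on controls and 1.80, 2.08 and 2.03 after treatment, a log2 difference of -0.16 (SE 0.10, adjusted p = 0.597) with overlapping groups. Rrm2b, the ribonucleotide reductase subunit that supplies nucleotides outside S phase, was at -3.77, -3.49 and -3.71 on controls and -3.51, -3.39 and -3.75 after treatment. Its values overlapped, with a log2 difference of 0.10 (SE 0.13, adjusted p = 0.787). Polk, a translesion polymerase, was at -0.07, -0.07 and -0.16 on controls and -0.24, -0.13 and -0.09 after treatment, with overlap and a log2 difference of -0.05 (SE 0.07, adjusted p = 0.825).

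The measured genes of the metabolism subset, which also takes in redox and RNA stability targets, had log2 changes slightly above 0. Sesn2, a sestrin that restrains mTORC1 and aids antioxidant defence, was at -0.28, -0.29 and -0.11 on controls and -0.12, -0.07 and -0.16 after treatment, a log2 difference of 0.11 (SE 0.08, adjusted p = 0.634). Tigar, a fructose bisphosphatase that lowers glycolysis, was at 0.05, -0.04 and -0.18 on controls and 0.11, 0.02 and 0.03 after treatment, also 0.11 (SE 0.09, adjusted p = 0.656). Control values reached into the treated range in both genes, and a dimmer Tigar probe gave -0.06 (SE 0.19). Zmat3, an RNA-binding zinc finger protein, was at 1.64, 1.53 and 1.46 on controls and 1.49, 1.97 and 1.66 after treatment, and its log2 change of 0.16 (SE 0.14, adjusted p = 0.682) rested on o-anisidine 2. Without that array it was 0.03, and without o-anisidine 1 it was 0.27.

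Several of these values differed between the slides, and 2 of the 3 treated animals were measured on a slide without controls. Within the slide that held both groups, where o-anisidine 3 alone stands against 3 controls, the median log2 change of the members was 0.06 and 20 of 27 lay above 0. Of all 31087 genes, 14148 lay above 0 within that slide, with a median of -0.02. The arrest genes had a median of 0.38 there with 8 of 9 above 0, the apoptosis genes 0.05 and the repair genes -0.04. There Cdkn1a was at -0.15, against 0.16 on 6 arrays, on its brightest probe, Aen at 0.06 against -0.32 and Rrm2b at -0.10 against 0.10. Xpc was at 0.01 and Mdm2 at 0.04. Btg2 was at 0.94 and Plk3 at 1.13. Slide and animal cannot be told apart for these differences among the treated arrays. A fit with slide as a block gives the same log2 changes, since slide 2 held no control, and so rests on o-anisidine 3 alone.

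Of 34 named genes of p53 regulation, 24 were tested, with 12 above 0, 12 below, a median log2 change of 0.02 and 0 called. The smallest p values were those of Chek2, a checkpoint kinase (0.34, SE 0.10, adjusted p = 0.310), and H2ax, the histone marked at DNA breaks (0.33, SE 0.11, adjusted p = 0.360). The groups did not overlap for 3 genes of this list higher (Chek2, H2ax and Usp7) and 2 lower (Nbn and Rpl5). Over all genes the shares were 9.55% higher and 8.88% lower.

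Further p53 targets outside the 32 gave a median log2 change of 0.01 over 46 tested, with 24 above 0 and 0 called. First by p was Ckap2, a spindle protein of dividing cells (1.55, SE 0.31, adjusted p = 0.159), then Vdr, the vitamin D receptor (0.35, SE 0.08, adjusted p = 0.223). Gdf15, a secreted stress factor and a common p53 readout named after its values were seen, was at -0.67, -0.44 and -0.27 on controls and 0.08, -0.31 and 0.34 after treatment, a log2 difference of 0.50 (SE 0.19, adjusted p = 0.412). As in Btg2 and Plk3, o-anisidine 2 lay among the controls. Of other Cdk inhibitors and Bcl2 family genes, 19 were tested with a median of -0.02 and 0 called. Cdkn2d, an inhibitor of Cdk4 and Cdk6, came first by p (0.54, SE 0.08, adjusted p = 0.108), and Mcl1, an antiapoptotic Bcl2 relative, had 0.32 (SE 0.09, adjusted p = 0.305).

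Genes that p53 lowers through p21 and the DREAM repressor complex are mostly genes of mitosis. All 22 tested lay above 0 with a median log2 change of 1.25, and for 21 of them the groups did not overlap, against 9.55% of all genes higher. By limma with Benjamini-Hochberg adjustment 0 passed the threshold over all genes, while 21 had an unadjusted p under 0.05, against 6.36% of all genes higher. Detection on all 6 arrays was not read for this list. A gene dim on controls, such as Aurkb (-5.59, -5.84 and -6.57), could have been kept through the treated group only. The counts may therefore include genes that were kept because they were higher after treatment. Kif20a, a kinesin of cytokinesis, had 1.86 (SE 0.24, adjusted p = 0.0993) and Ccnb2, a mitotic cyclin, 1.72 (SE 0.23, adjusted p = 0.101). The median shift of this list was 1.33, 0.83 and 1.62 on o-anisidine 1, 2 and 3 and between -0.22 and 0.16 on controls.

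**Figure D4:**
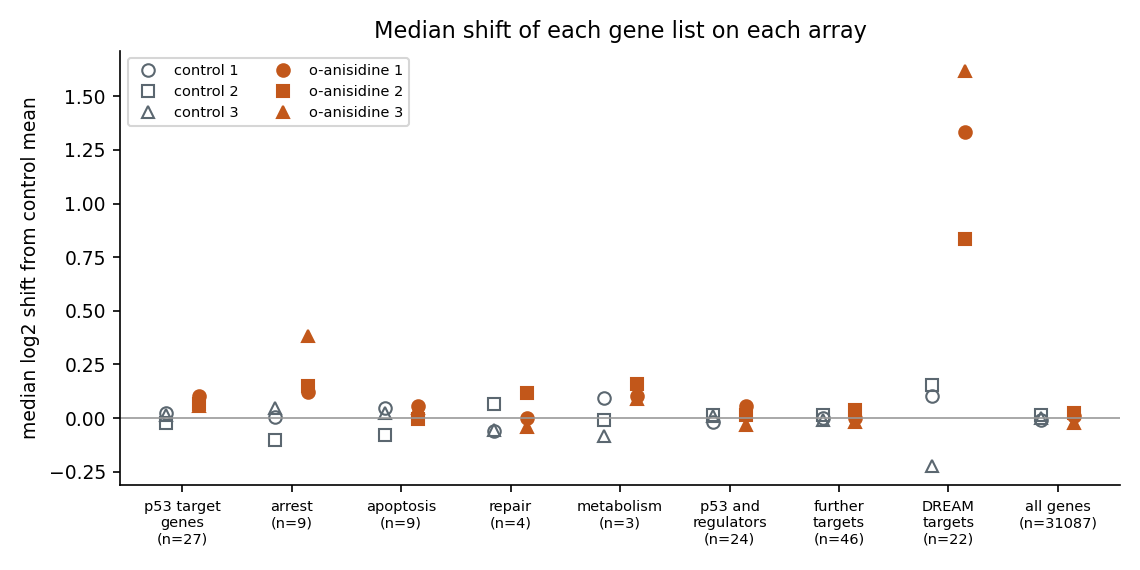
Median shift of each gene list from the control mean, in log2 units, on each array; open grey symbols are controls, filled orange symbols o-anisidine, and the number of genes tested stands under each list. The p53 target genes lie between 0.06 and 0.10 on treated arrays, the arrest subset reaches 0.38 on o-anisidine 3, and the DREAM targets lie between 0.83 and 1.62.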

How the data were processed

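Each scanner file, as deposited, gives 1 array's processed spot intensity, which Agilent Feature Extraction 10.7.1.1 made by background subtraction and detrending, per the file headers. It involves no scaling between arrays. Other deposited columns are flags (1 or 0), per the file headers. The authors' series value table holds a linear intensity (column medians 0.104 to 0.108) whose scaling is not stated. Its columns match scanner files of the same group under other replicate numbers (r = 1.00 on the log2 scale), and replicate numbers here follow the scanner files.

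Log2 processed signals of 61657 non-control probes were set relative to each array's 75th percentile. After dropping 16 probes with an outlier flag, those detected well above background on every array of at least 1 group were kept (42036). Accessions were matched to RefSeq symbols (GRCr8 gene table, names only). A gene is its brightest kept probe. RNA of separate animals is the replicate. Groups were compared with limma 3.58.1 in R 4.3.3 (no covariates, two-sided, Benjamini-Hochberg over 31087 genes, threshold 0.05). The method was tested on simulated data with changes larger than those of the members and no slide effect. That test therefore does not bear on changes of the members' size or on the slides. The tests of single probes ran over all kept probes. Members, lists and roles were chosen with earlier results of these data known. Values on every array are given for the 3 members of smallest p per role, all of a role with 4 or fewer, and 5 preset members (Cdkn1a, Mdm2, Ccng1, Bax and Gadd45a); from other pathway lists the 2 of smallest p are named, with their log2 change. Plk3, Gdf15 and the lists of immediate early genes and injury markers were chosen after values were seen, and cell type markers are given as counts with examples chosen likewise. A further gene of the rule is not reported here. Alternatives covered background correction, scaling, filters, probe choice, variance model, slide, replicate block and each array left out.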

Additional observations from a re-analysis of the deposited data

How the results depend on the processing

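No p53 target gene was called under any of 17 alternatives, and 19 of 27 members kept their direction in all of them. With slide as a block and with the shared slide alone, o-anisidine 3 alone stood against the controls, so the absence of calls there adds no support. Over all genes, against 11 higher and 8 lower, normexp gave 67 and 17, trend with robust estimation 91 and 29, slide as a block 2 and 1, the shared slide alone 1 and 1, no dim filter 5 higher, and all 6 arrays well above background 5 lower. Leaving out 1 array gave 2 to 16 higher and 1 to 5 lower: 3 higher without control 1, 4 without control 2 or control 3 and 2 without o-anisidine 3, and fewer lower whichever array was left out. The members' median was 0.056 with slide as a block and within the slide, and 0.083 to 0.13 with 1 array left out. That of the apoptosis genes was 0.086 with normexp. With 1 array left out, the medians ranged from 0.186 to 0.377 for arrest, from -0.019 to 0.062 for apoptosis and from -0.020 to 0.073 for repair genes. With slide as a block, and so within the slide, Cdkn1a was at -0.146, Apaf1 at -0.084, Aen at 0.056, Phlda3 at 0.046, Polk at 0.011 and Rrm2b at -0.097. Perp was at -0.0041 with quantile normalization and Ccng2 at -0.045 with the mean of all kept probes. With 1 array left out, Ccng2 ranged from -0.059 to 0.128, Apaf1 from -0.019 to 0.141, Perp from -0.0098 to 0.064 and Phlda3 from -0.124 to 0.013. The cause of these shifts was not tested. With the replicate block 1 gene was higher and 0 lower, and no member was called. Same-numbered arrays correlated at 0.02, 0.08 and 0.01 in their deviations from the group mean, and arrays of different number between -0.05 and 0.03. Deviations from a mean of 3 arrays cannot decide whether the numbers pair the animals. With 3 animals per group, small changes are not detectable.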
